A study of Mus musculus with 12 samples.

Results

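Hemoglobin, the oxygen carrier of red blood cells, is built from alpha-like and beta-like globin chains, and the mouse makes different chains before and after mid-gestation. The 7 globin genes described here are the embryonic genes *Hbb-y*, *Hbb-bh1* and *Hba-x* and the adult genes *Hbb-bs*, *Hbb-bt*, *Hba-a1* and *Hba-a2*, and all 7 were found among the 35976 gene symbols of the count tables. They were chosen by symbol, with their levels over the 4 groups of these same pools known, so their levels, ratios and fold changes are given as a description without a test.

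RNA was sequenced from testes of outbred Swiss mouse embryos at E15.5. The mothers of the F1 embryos received thiacloprid (*thia*), a neonicotinoid insecticide, at 6 mg/kg/day or only the oil vehicle (0 mg/kg/day) from E6.5 to E15.5, which exposed the F1 embryos directly. The F3 embryos descended from these mice through males crossed to untreated, unrelated females, and were not treated themselves. Each of the 4 groups (F1 control, F1 *thia*, F3 control and F3 *thia*) held 3 pools, with the testes of 3 embryos in a pool. Single embryos cannot be told apart. An SD given here is the spread between pools, and an SE comes from a model fit that draws on the spread of other genes too.

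Red blood cells of the mouse embryo come in 2 lineages. Primitive erythrocytes arise in the yolk sac, express mainly the embryonic globins, and circulate through mid-gestation. Definitive erythrocytes come from the fetal liver, express the adult globins, and replace the primitive cells in the circulation as gestation proceeds. The testis is not known to form red blood cells, and its vessels hold those that circulate. In a pool of whole tissue, fewer blood cells and less globin RNA per cell cannot be told apart.

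The total count per pool ranged from 25081647 in F1 control replicate 3 to 68996146 in F3 *thia* replicate 3. The markers of Sertoli cells, fetal Leydig cells and germ cells were above 0 in every pool, with summed levels of 421 to 1483 CPM (counts divided by the scaled library total, in units of 1e6 counts), 2165 to 6877 CPM and 176 to 757 CPM. One library stood apart: in F3 *thia* replicate 2 the 6 markers of fetal liver hepatocytes summed to 5064 CPM, against 603 and 968 CPM in the other 2 F3 *thia* pools. In F3 control replicate 3 they summed to 1668 CPM, against 357 and 493 CPM in the other 2 F3 control pools, and in the 6 F1 pools they ranged from 70.0 to 434 CPM. In F1 *thia* replicate 2 the 5 markers of skeletal muscle summed to 475 CPM, against 13.6 to 54.9 CPM in the other F1 pools. The part of these cells in the globin values was not tested. Fold changes within F3 that rest on F3 *thia* replicate 2 are given with and without it, and correlations only with it.

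The genes lie in 2 clusters of the GRCm38 (mm10) genome, each gene with 3 exons, and in each cluster an embryonic gene comes first in the direction of transcription. The beta-like genes are on the minus strand of chromosome 7: *Hbb-y* at chr7:103851754-103853207, *Hbb-bh1* at chr7:103841638-103843162, *Hbb-bs* at chr7:103826523-103827928 and *Hbb-bt* at chr7:103812524-103813923. The alpha-like genes are on the plus strand of chromosome 11: *Hba-x* at chr11:32276600-32278116, *Hba-a1* at chr11:32283672-32284486 and *Hba-a2* at chr11:32296492-32297310.

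**Figure D1:**
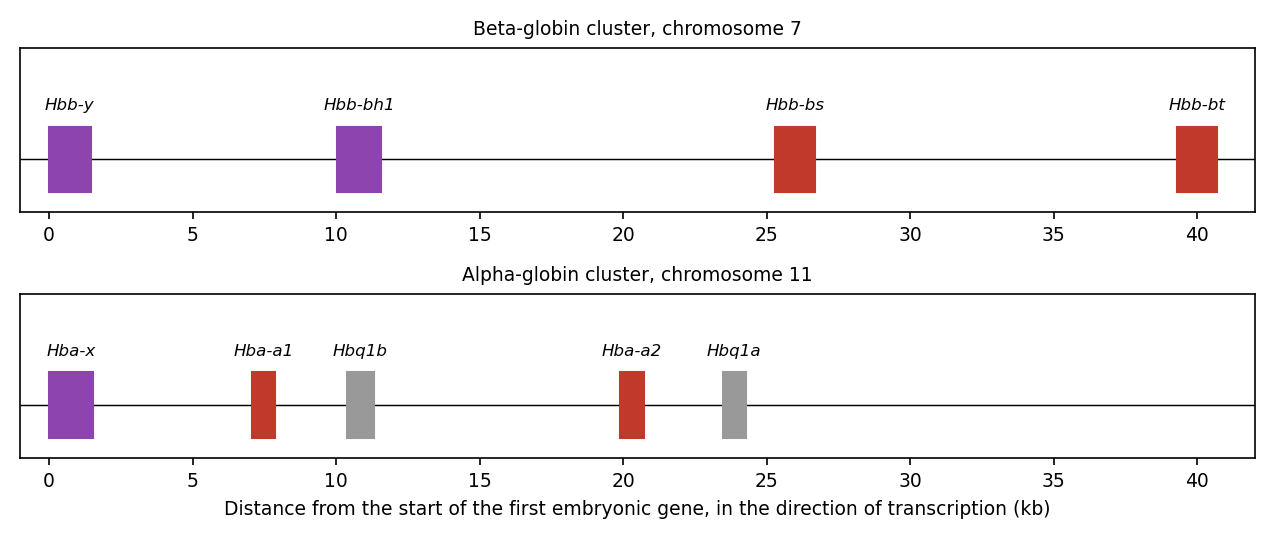
Maps of the beta-globin cluster on chromosome 7 and the alpha-globin cluster on chromosome 11, with the distance in kb from the start of the first embryonic gene, in the direction of transcription, on the x axis. Boxes span the named genes to scale, embryonic members in purple, adult members in red and the theta-like genes *Hbq1a* and *Hbq1b* in grey; the adult beta-like genes start 25279 and 39284 bases after *Hbb-y*.

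The 150 bases upstream of the transcription start are shown for 5 members because these promoters carry the short motifs through which erythroid and general transcription factors are known to act on globin genes. Promoters of 6 of the 7 members were matched by symbol in RefSeq (GRCm38.p6); *Hbb-bh1* is named only. Capitals mark matches on either strand to 4 short motifs. The first is CACCC, the box bound by KLF-family factors. The second is the widespread promoter box written CCAAT. The third is a TATA-like box, where transcription is set to start, and the fourth a GATA-like site, the kind bound by GATA factors. The windows are *Hbb-y* chr7:103853208-103853357 and *Hbb-bs* chr7:103827929-103828078 and *Hbb-bt* chr7:103813924-103814073 on the minus strand, and *Hba-x* chr11:32276450-32276599 and *Hba-a1* chr11:32283522-32283671 on the plus strand.
Hbb-y: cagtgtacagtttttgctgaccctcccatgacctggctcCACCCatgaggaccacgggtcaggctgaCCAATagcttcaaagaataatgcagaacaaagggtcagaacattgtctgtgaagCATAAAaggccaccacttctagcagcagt
Hba-x: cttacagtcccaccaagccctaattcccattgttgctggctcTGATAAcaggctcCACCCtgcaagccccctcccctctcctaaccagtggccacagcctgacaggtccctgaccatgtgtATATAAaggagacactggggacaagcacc
Hbb-bs: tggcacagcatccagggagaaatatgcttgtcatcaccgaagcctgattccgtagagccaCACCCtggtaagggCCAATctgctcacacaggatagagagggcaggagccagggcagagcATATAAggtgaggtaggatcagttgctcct
Hbb-bt: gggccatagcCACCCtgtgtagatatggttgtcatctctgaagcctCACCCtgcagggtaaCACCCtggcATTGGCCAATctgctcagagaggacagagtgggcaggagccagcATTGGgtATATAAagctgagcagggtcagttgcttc
Hba-a1: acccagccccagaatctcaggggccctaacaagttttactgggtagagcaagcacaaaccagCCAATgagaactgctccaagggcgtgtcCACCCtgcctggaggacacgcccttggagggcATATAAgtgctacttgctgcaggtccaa

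A CACCC match was found in 6 of 6 windows, against 37.4% of the 32851 promoters of the same length in the table. A CCAAT match was found in 5 of 6 windows, the window of *Hba-x* being the one without, against 24.5% of all promoters. A TATA-like box, searched as ATATAA and in a variant form as CATAAA, was found in 6 of 6 windows, between 23 and 31 bases upstream of the start, against 10.99% of all promoters. *Hbb-y* has the variant form and the other 5 have the usual one. A GATA-like site was searched as TGATAA, found in *Hba-x* alone, and as AGATAA, found in none of the 6 windows. One or the other is held by 9.65% of all promoters. In *Hbb-bt* a forward and a reverse CCAAT match lie end to end, 71 to 80 bases upstream. The window of *Hba-a2* (chr11:32296342-32296491) was 96.1% identical to that of *Hba-a1*, whereas the windows of *Hbb-bs* and *Hbb-bt* were 73.7% identical. A match describes the letters only.

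The coding sequences of *Hbb-bs* and *Hbb-bt* were 99.8% identical, as were those of *Hba-a1* and *Hba-a2*. Of the 100-base windows (the length of a read) in the transcript, 62.6% in *Hbb-bs*, 62.3% in *Hbb-bt*, 76.5% in *Hba-a1* and 74.3% in *Hba-a2* occur also in the other copy. How the authors' counting treated reads that match both copies is not given in the sources used here, so the split between *Hbb-bs* and *Hbb-bt* and between *Hba-a1* and *Hba-a2* is uncertain. If such reads were left out, the adult levels would be too low. The embryonic share, the order of the genes and the ratio of adult alpha to adult beta genes carry this limit too. The reference genome carries this pair of adult beta genes, and whether the outbred animals carried other adult beta alleles was not tested. In the 3 embryonic genes 0% of the windows were shared with another member.

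The embryonic globins were the members that differed most between *thia* and control, and did so in F3. *Hbb-y* encodes the epsilon-like beta chain of the embryo. Its level was 330, 117 and 354 CPM in the F3 control pools and 42.1, 50.6 and 45.5 CPM in the F3 *thia* pools. All F3 *thia* pools were below all F3 control pools, and even F3 control replicate 2, the lowest control, held more *Hbb-y* than any of them. The log2 fold change was -2.54 (SE 0.39, n = 3 pools per group), a level 5.82-fold lower in *thia*.

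*Hba-x* encodes the zeta chain, the embryonic partner on the alpha side. Its level was 96.9, 50.5 and 83.9 CPM in F3 control and 19.9, 31.3 and 23.2 CPM in F3 *thia*. The groups did not overlap, and the log2 fold change was -1.64 (SE 0.27, n = 3 pools per group), a level 3.12-fold lower in *thia*. *Hbb-bh1*, the beta-like chain made mainly by the earliest primitive erythrocytes, was the lowest member. Its level was 7.01, 4.45 and 8.15 CPM in F3 control and 3.36, 2.82 and 1.69 CPM in F3 *thia*, which rest on 165 to 307 counts and 98 to 148 counts per pool. These groups did not overlap either, with a log2 fold change of -1.33 (SE 0.32, n = 3 pools per group).

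The adult globins overlapped between F3 *thia* and F3 control. *Hbb-bs*, the adult beta gene with the most counts in these pools, was at 29063, 27341 and 28677 CPM in F3 control and at 19034, 36698 and 23278 CPM in F3 *thia*. *Hba-a1*, the adult alpha gene with the most counts, was at 24633, 22501 and 23130 CPM in F3 control and at 14305, 32007 and 16127 CPM in F3 *thia*. For both genes F3 *thia* replicate 2 was above every control pool and the other 2 *thia* pools were below the lowest control, so the groups overlapped. The log2 fold changes were -0.11 (SE 0.23) for *Hbb-bs* and -0.17 (SE 0.29) for *Hba-a1*.

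As counted, the other copies varied less over the F3 *thia* pools, within the limit set by the near-identical copies. *Hbb-bt* was at 3629, 2824 and 3473 CPM in F3 control and at 3857, 3972 and 2704 CPM in F3 *thia*, a log2 fold change of 0.08 (SE 0.17). *Hba-a2* was at 7308, 7573 and 8345 CPM in F3 control and at 6842, 7345 and 6315 CPM in F3 *thia*, a log2 fold change of -0.18 (SE 0.10). Both pairs of groups overlapped.

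Without F3 *thia* replicate 2, the log2 fold changes in F3 were -2.61 for *Hbb-y*, -1.84 for *Hba-x* and -1.39 for *Hbb-bh1*. Those of *Hbb-bs* and *Hba-a1* moved to -0.42 and -0.62, those of *Hbb-bt* and *Hba-a2* to -0.02 and -0.24. The 2 remaining *thia* pools were thus lower than the controls in *Hbb-bs* and *Hba-a1* too, by less than in the embryonic genes.

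As background for these counts, the pools of F3 *thia* lay wholly below those of F3 control for 13.9% of the 18539 genes tested, and for 3 of the 7 members. In the quasi-likelihood test of edgeR at an adjusted p of 0.1, 0 genes of the whole table (0%) and 0 members were called in F3, with 3906 genes at an unadjusted p under 0.05, while the Wald test of DESeq2 called 2262. Nothing is read from the members' count, because this contrast was known when they were chosen.

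Markers of testis cells were set beside these values. The 5 Leydig cell markers summed to 2165 to 3594 CPM in F3 control and to 3798 to 6877 CPM in F3 *thia*, without overlap. The 6 Sertoli cell markers summed to 421 to 577 CPM and 458 to 921 CPM, and the 5 germ cell markers to 268 to 421 CPM and 176 to 335 CPM, both with overlap. Their part in the globin values was not tested.

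**Figure D2:**
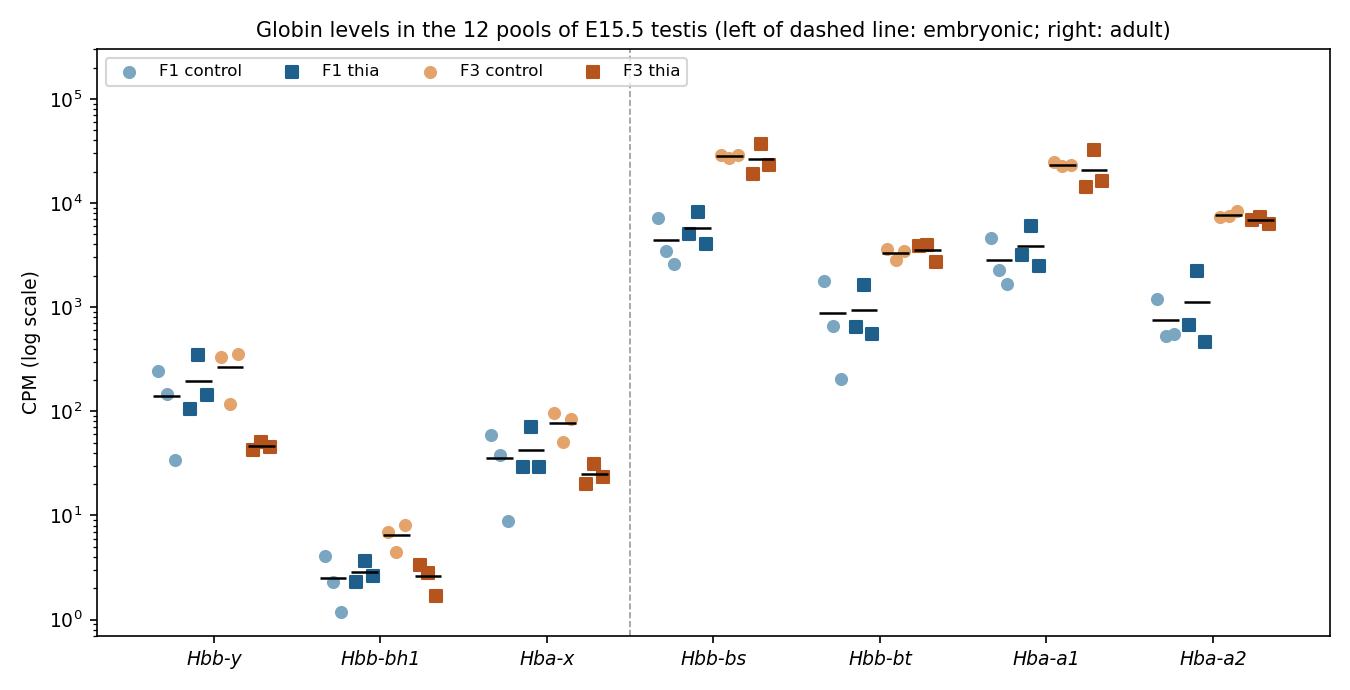
Level of each globin in CPM (log scale) on the y axis in the 12 pools, with circles for control, squares for *thia*, blue for F1 and orange for F3; horizontal lines are group means. The F3 *thia* pools lie below the F3 control pools for the 3 embryonic genes and overlap them in range for the 4 adult genes, and adult genes are higher in F3 than in F1.

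In F1 the pools of all 7 genes overlapped between *thia* and control. *Hbb-y* was at 242, 148 and 33.9 CPM in F1 control and at 105, 344 and 143 CPM in F1 *thia*. F1 control replicate 3, the pool with the smallest total count, was the lowest of the 6 and F1 *thia* replicate 2 the highest. The log2 fold change was 0.49 (SE 0.58).

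*Hba-x* was at 59.7, 38.2 and 8.86 CPM in F1 control and at 28.9, 70.3 and 29.2 CPM in F1 *thia*, a log2 fold change of 0.27 (SE 0.53). *Hbb-bh1* was at 4.08, 2.28 and 1.19 CPM in F1 control and at 2.28, 3.64 and 2.63 CPM in F1 *thia*, a log2 fold change of 0.17 (SE 0.37). F1 control replicate 3 was the lowest of the 6 pools in both genes.

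*Hbb-bs* was at 7115, 3437 and 2625 CPM in F1 control and at 5023, 8232 and 4023 CPM in F1 *thia*, a log2 fold change of 0.41 (SE 0.35). *Hba-a1* was at 4647, 2273 and 1653 CPM in F1 control and at 3182, 6054 and 2470 CPM in F1 *thia*, a log2 fold change of 0.47 (SE 0.38). In both genes F1 *thia* replicate 2 was highest and F1 control replicate 3 lowest.

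*Hbb-bt* was at 1786, 655 and 205 CPM in F1 control and at 640, 1647 and 550 CPM in F1 *thia*, a log2 fold change of 0.12 (SE 0.62). *Hba-a2* was at 1189, 526 and 548 CPM in F1 control and at 679, 2217 and 459 CPM in F1 *thia*, a log2 fold change of 0.58 (SE 0.51). At an adjusted p of 0.15, edgeR called 2 of 19137 genes in F1 (0.0105%) and 0 members. The number of genes at an unadjusted p under 0.05 was 1677, and DESeq2 called 193 genes.

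The change with *thia* in F3 minus that in F1 was -3.01 on the log2 scale (SE 0.86) for *Hbb-y*, -1.89 (SE 0.74) for *Hba-x* and -1.48 (SE 0.55) for *Hbb-bh1*. For the adult genes it lay between -0.75 and -0.01. At an adjusted p of 0.1 edgeR called 1 of 19626 genes for this difference (0.0051%) and 0 members, with 2755 genes at an unadjusted p under 0.05 and 638 called by DESeq2.

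The embryonic share of the globin counts, a ratio within a pool, was lowest in F3 *thia*. In F3 control the embryonic genes took 0.666% (95% Wilson interval 0.656 to 0.678), 0.285% (0.278 to 0.292) and 0.697% (0.686 to 0.707) of the globin counts. In F3 *thia* they took 0.148% (0.143 to 0.154), 0.106% (0.102 to 0.110) and 0.145% (0.141 to 0.149). The highest *thia* pool was below the lowest control pool, and the share was 0.549% ± 0.229 (SD, n = 3) in control and 0.133% ± 0.024 (SD, n = 3) in *thia*. The intervals cover counting error only.

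In F1 control the share was 2.03% (2.00 to 2.06), 2.66% (2.62 to 2.71) and 0.866% (0.818 to 0.917). In F1 *thia* it was 1.40% (1.37 to 1.44), 2.25% (2.22 to 2.29) and 2.28% (2.23 to 2.32). The F1 groups overlapped, with means of 1.85% ± 0.91 (SD, n = 3) and 1.98% ± 0.50 (SD, n = 3).

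The log2 ratio of embryonic to adult counts differed by -1.96 between F3 *thia* and F3 control, a ratio 3.89-fold lower in *thia*, with a pooled SD of 0.55. It differed by 0.21 between F1 *thia* and F1 control, with a pooled SD of 0.67, and without F1 control replicate 3 this difference was -0.27. In F3 it was -2.21 for the beta-like genes alone and -1.38 for the alpha-like genes alone, and -1.80 without F3 *thia* replicate 2.

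**Figure D3:**
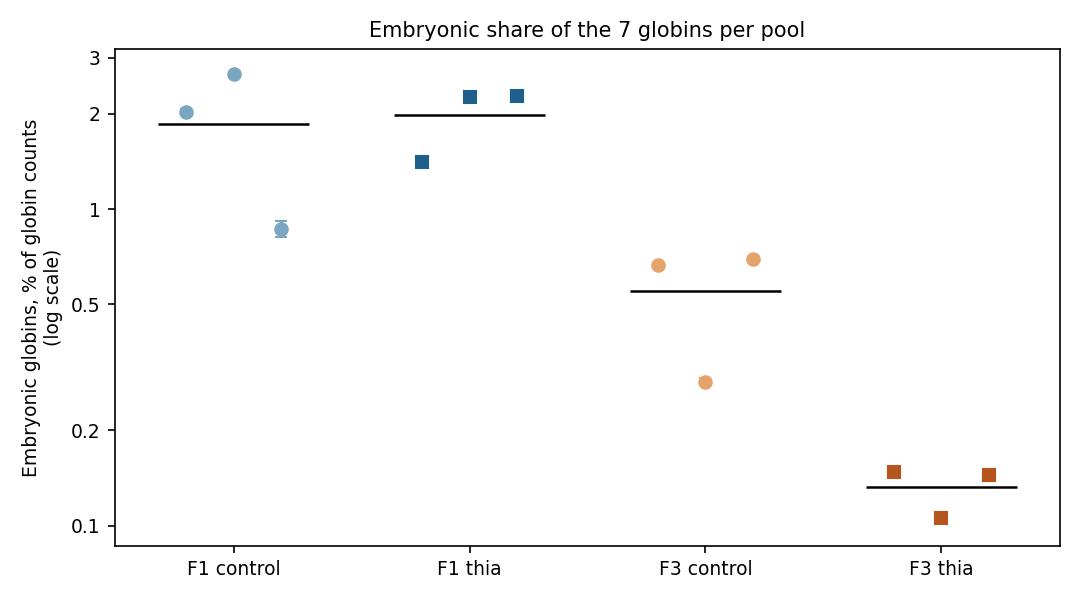
Percent of the counts of the 7 globins that fell on the 3 embryonic genes (y axis, log scale) in each pool of the 4 groups, with 95% Wilson intervals as error bars, mostly hidden by the points, and horizontal lines at the group means. The 3 F3 *thia* pools lie between 0.106 and 0.148%, below the 3 F3 control pools, and all F3 pools lie below all F1 pools.

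The difference in F3 was not of 1 size within the embryonic set. Per kilobase of transcript, *Hba-x* was at 0.303, 0.443 and 0.244 of the level of *Hbb-y* in the F3 control pools and at 0.487, 0.637 and 0.525 of it in the F3 *thia* pools, which did not overlap. The same ratio was 0.263 ± 0.008 in F1 control and 0.235 ± 0.043 in F1 *thia* (SD, n = 3). *Hbb-y* was 46.4, 26.0 and 42.8 times as high per kilobase as *Hbb-bh1* in F3 control and 12.3, 17.7 and 26.5 times as high in F3 *thia*. Here F3 *thia* replicate 3 was above the lowest control, so the groups overlapped.

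The amount of globin RNA differed far more between generations than with *thia*. This comparison, of F3 control with F1 control, was added after the data were seen. The labels do not say whether the 2 generations were collected and processed together, so generation and processing cannot be told apart. The 7 globins took 1.58, 0.762 and 0.546% of all counts in F1 control and 5.96, 5.62 and 5.94% in F3 control. The *thia* pools showed the same, with 0.803 to 1.98% in F1 and 4.34 to 7.25% in F3. Between the control groups the Sertoli cell markers summed to 1146 to 1303 CPM in F1 and 421 to 577 CPM in F3. The germ cell markers summed to 571 to 757 CPM and 268 to 421 CPM, again without overlap, and the part of both in the globin values was not tested.

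The adult genes carried this difference. *Hba-a2* was 10.3-fold higher in F3 control than in F1 control (log2 fold change 3.36, SE 0.51), *Hba-a1* 8.20-fold (3.03, SE 0.44), *Hbb-bs* 6.46-fold (2.69, SE 0.37) and *Hbb-bt* 3.75-fold (1.91, SE 0.60). In these 4 genes the lowest F3 control pool was above the highest F1 control pool. *Hbb-bh1* was 2.56-fold higher (1.36, SE 0.39) without overlap, whereas *Hbb-y* (0.92, SE 0.60) and *Hba-x* (1.10, SE 0.52) overlapped between the 2 control groups. The embryonic sum was 351 ± 155 CPM in F3 control and 179 ± 131 CPM in F1 control, and the adult sum was 62832 ± 2302 CPM and 8886 ± 5151 CPM (SD, n = 3).

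The pools of F3 control lay wholly above those of F1 control for 23.3% of the genes tested and for 5 of 7 members. At an adjusted p of 0.1 edgeR called 8300 of 19626 genes (42.3%), of which 3912 were higher in F3 control (19.9%), and 5 members. The members were chosen with these values known, so nothing is read from these counts.

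The order of the genes was given by the level per kilobase. In F3 control it ran from *Hbb-bs* (44382 CPM per kb) and *Hba-a1* (41898.5) through *Hba-a2* (13751), *Hbb-bt* (5252), *Hbb-y* (432) and *Hba-x* (128) to *Hbb-bh1* (10.7). Only *Hbb-bs* and *Hba-a1* were close, with SDs of 1414 and 1960 CPM per kb. Their ranges over the pools did overlap, but *Hbb-bs* was above *Hba-a1* within each F3 control pool. In F1 control the order was *Hbb-bs* (6874 ± 3744 CPM per kb), *Hba-a1* (5112 ± 2827), *Hbb-bt* (1400 ± 1292), *Hba-a2* (1340 ± 670), *Hbb-y* (228 ± 168), *Hba-x* (59.2 ± 42.4) and *Hbb-bh1* (4.12 ± 2.39). There the ranges of *Hbb-bs* and *Hba-a1* overlapped, as did those of *Hbb-bt* and *Hba-a2* and those of *Hbb-y* and *Hba-x*. Within each F1 control pool, *Hbb-bs* was above *Hba-a1* and *Hbb-y* above *Hba-x*. *Hbb-bt* was above *Hba-a2* except in F1 control replicate 3, with 326 and 973 CPM per kb.

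The balance of adult chains also differed between generations. Per kilobase, the adult alpha genes summed to 0.746, 0.779 and 0.886 of the adult beta genes in F1 control and to 1.11, 1.14 and 1.12 in F3 control. In *thia* the ratio was 0.820 ± 0.118 in F1 and 1.05 ± 0.06 in F3 (SD, n = 3). The 6 F3 pools, from 0.984 to 1.14, lay above the 6 F1 pools, from 0.730 to 0.953. Also per kilobase, *Hbb-bt* made 14.6% ± 6.6 of the adult beta level in F1 control and 10.6% ± 0.9 in F3 control (SD, n = 3). *Hba-a2* made 21.2% ± 3.2 and 24.7% ± 1.8 of the adult alpha level (SD, n = 3). Both shares stand within the limit set by the near-identical copies.

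**Figure D4:**
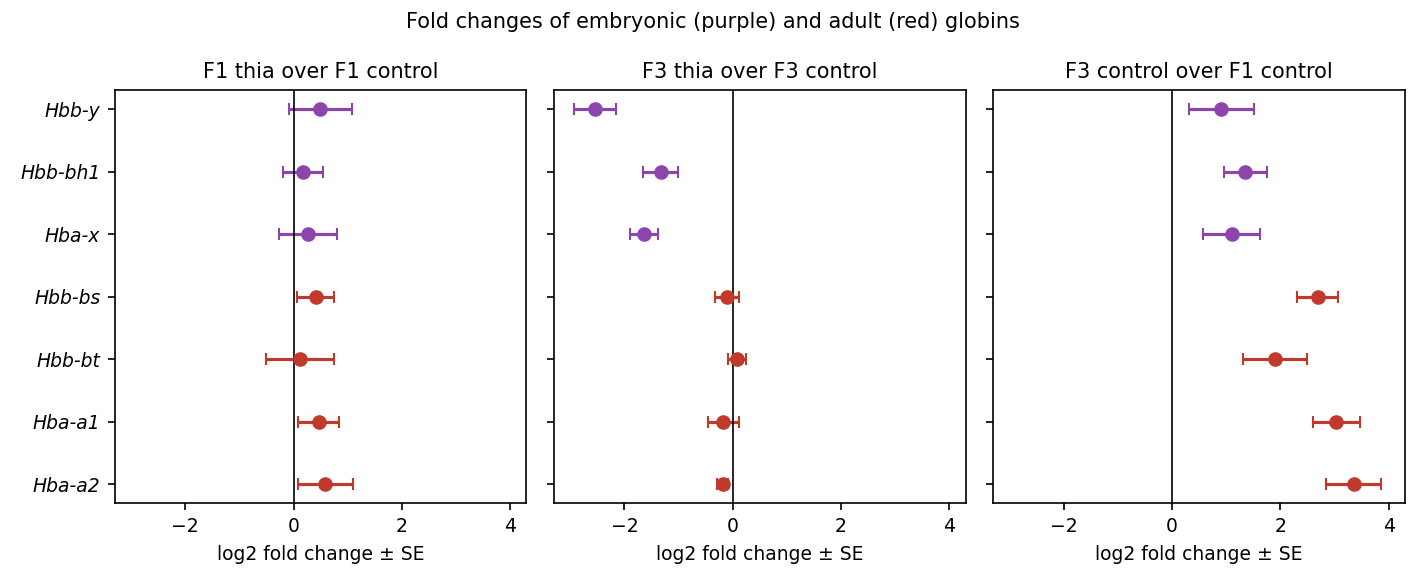
Log2 fold change (x axis) with its standard error from the edgeR fit for the 3 embryonic (purple) and 4 adult (red) globins in 3 comparisons of 3 against 3 pools. For F3 control over F1 control the fit held all 12 pools, so its standard error also rests on the *thia* pools. Embryonic genes lie at -2.54 to -1.33 in F3 *thia* over F3 control while adult genes lie near 0, and adult genes lie at 1.91 to 3.36 in F3 control over F1 control.

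Other genes of the globin family were tested, as they were not used to choose the members. This list and those below were still drawn up with earlier results of these data known. *Hbq1a* and *Hbq1b*, theta-like genes of the alpha cluster with a similar sequence, were low. *Hbq1a* was at 3.29, 3.45 and 3.98 CPM in F3 control and at 1.54, 2.42 and 2.49 CPM in F3 *thia*. Its log2 fold change of -0.73 (SE 0.24) had an adjusted p of 0.153 in edgeR, above the threshold, and it passed with DESeq2 at an adjusted p of 0.0521. *Hbq1b* was at 5.70, 4.53 and 7.44 CPM in F3 control and at 4.54, 14.4 and 4.25 CPM in F3 *thia*. Its log2 fold change in F3 was 0.38 (SE 0.48, adjusted p = 0.696 in edgeR), and -0.43 without F3 *thia* replicate 2. Between the control groups *Hbq1a* (log2 fold change 2.78, SE 0.66, adjusted p = 0.00745 in edgeR) and *Hbq1b* (2.66, SE 0.50, adjusted p = 0.00197) were higher in F3.

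*Cygb*, cytoglobin of fibroblasts and other connective cells, was at 60.4 ± 8.0 CPM in F3 control and 84.0 ± 13.7 CPM in F3 *thia* (SD, n = 3), with an adjusted p of 0.146 in edgeR and of 0.0318 in DESeq2. *Ngb*, neuroglobin, was at 2.36 ± 0.32 and 1.96 ± 0.11 CPM and *Adgb*, androglobin, at 1.01 ± 0.21 and 1.05 ± 0.80 CPM in the same groups. Neither passed within a generation, and *Adgb* was lower in F3 control than in F1 control (log2 fold change -1.03, SE 0.42, adjusted p = 0.0727 in edgeR). The call of *Adgb* was lost without F3 control replicate 3 (adjusted p = 0.139), and also without F3 control replicate 1, F1 control replicate 2 or F1 control replicate 3. Of 10 listed family genes 7 were in the table and 6 were tested, *Hbb-bh2* being too low, and 0 were called by edgeR in F1, F3 or the difference between them. DESeq2 called 2 in F3, *Hbq1a* and *Cygb*, against 14.9% of all genes.

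Red blood cell genes other than globins were tested beside them. The list held 29 genes, of which 28 were in the table (*Ahsp*, the alpha-globin chaperone, was not analysed here), and covers membrane proteins, heme enzymes and erythroid transcription factors. In F3 control against F1 control 24 of the 28 rose at an adjusted p of 0.1 in edgeR and 0 fell, against 19.9% of all genes, with a median log2 fold change of 2.02 against -0.02 over all genes. *Alas2*, the first enzyme of erythroid heme synthesis, was at 227 ± 129 CPM in F1 control and 1566 ± 79 CPM in F3 control (log2 fold change 2.79, SE 0.41, adjusted p = 0.000587).

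The membrane anion exchanger *Slc4a1* (2.53, SE 0.62, adjusted p = 0.00896) and the erythroid factors *Klf1* (2.45, SE 0.76, adjusted p = 0.0264) and *Gata1* (1.88, SE 0.59, adjusted p = 0.0278) were higher as well, by edgeR. Without F3 control replicate 3, the control pool with the most hepatocyte marker RNA, 14 of 28 were called, all higher, and *Klf1* and *Gata1* were not among them (adjusted p of 0.114 and 0.122 in edgeR). There 30.9% of all genes were called and 14.6% were called higher. Without F1 control replicate 2, 16 were called, all higher. In that fit 6540 genes of the whole table were called, against 8300 with all pools.

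With *thia*, 0 of the 28 erythroid genes passed in F1 or in F3 by edgeR, with 1 and 0 at an unadjusted p under 0.05, and DESeq2 called 0 as well. The median log2 fold change was -0.11 in F1 and 0.53 in F3, against 0.01 and 0.00 over all genes. The value in F3 rested on 1 pool: without F3 *thia* replicate 2 the median was -0.65, and 9 of 28 genes were called, all lower. Without this pool 6.82% of all genes were called in F3 and 2.59% were called lower.

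The 9 genes were *Alas2*, *Epb42*, *Rhd*, *Kel*, *Tspo2*, *Trim10*, *Fech*, *Bpgm* and *Slc25a37*, named here after their values were seen. *Alas2* was at 1574, 1484 and 1642 CPM in F3 control and at 948, 1945 and 1048 CPM in F3 *thia*. *Fech*, the last enzyme of heme synthesis, was at 577, 559 and 596 CPM and at 364, 789 and 353 CPM. For both genes F3 *thia* replicate 2 was above all controls and the other 2 *thia* pools were below all controls, as for *Hba-a1*. Without that pool the log2 fold changes were -0.65 (SE 0.10, adjusted p = 0.0586) for *Alas2* and -0.69 (SE 0.08, adjusted p = 0.0505) for *Fech* in edgeR.

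Of the genes named by the smallest p in F3, *Sptb* (beta-spectrin) was at 73.7 ± 18.0 CPM in F3 control and 126 ± 64 CPM in F3 *thia* (SD, n = 3, adjusted p = 0.254 in edgeR), *Bpgm* (bisphosphoglycerate mutase of red blood cells) had a log2 fold change of -0.34 (adjusted p = 0.418) and *Ank1* (ankyrin of the red cell membrane) one of 0.69 (adjusted p = 0.491). These values rested on F3 *thia* replicate 2: without it the log2 fold change of *Sptb* went from 0.76 to 0.27, that of *Bpgm* from -0.34 to -0.66 and that of *Ank1* from 0.69 to -0.19, with *Bpgm* then called. Of those named in F1, *Rhag*, *Icam4* and *Ermap* had log2 fold changes of -0.97, -0.58 and -0.76, with adjusted p-values of 0.551, 0.586 and 0.593.

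The profile across pools was compared with the globins for each erythroid gene. *Alas2* followed the adult sum within each generation, with a Pearson r of 0.97 over the 6 F1 pools and 0.99 over the 6 F3 pools, as a description of pools that share libraries and groups. *Klf1* was at 11.3, 77.7 and 11.1 CPM in the F3 *thia* pools and at 15.7, 11.9 and 37.3 CPM in the F3 control pools. It was highest in the 2 pools with the most hepatocyte marker RNA, and its r in F3 was 0.91 with the hepatocyte markers and 0.82 with the adult globins.

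Over the 28 genes the median r with the adult sum was 0.76 in F1 and 0.82 in F3, and the median r with the hepatocyte markers was 0.74 and 0.90. The median r with the embryonic sum was 0.62 in F1 and 0.07 in F3. The adult sum itself had an r of 0.41 in F1 and 0.53 in F3 with the hepatocyte markers, and the embryonic sum one of 0.20 and -0.20. In F3 *thia* replicate 2 the 28 genes summed to 6965 CPM, against 2528 to 4587 CPM in the other F3 pools. No r was computed without that pool.

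**Figure D5:**
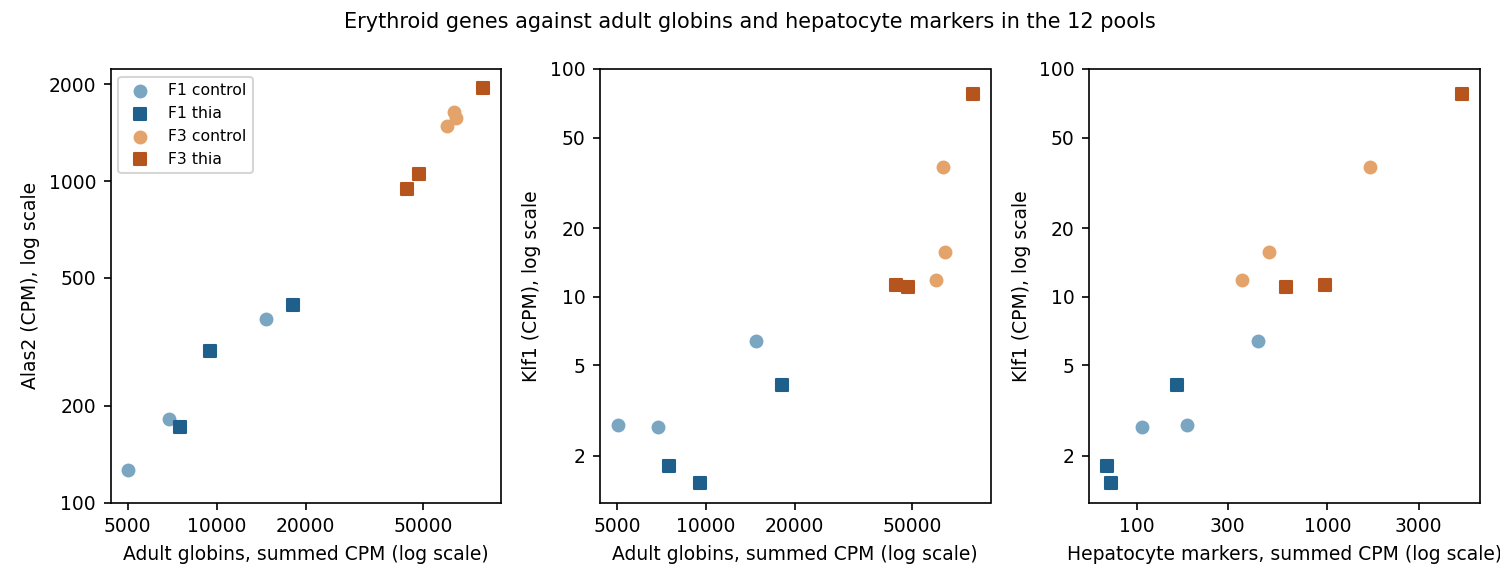
Level of *Alas2* against the summed adult globins, of *Klf1* against the summed adult globins and of *Klf1* against the summed hepatocyte markers in the 12 pools, all in CPM on log axes, with circles for control, squares for *thia*, blue for F1 and orange for F3. *Alas2* follows the adult globins in all pools, and *Klf1* is highest, at 77.7 CPM, in the F3 *thia* pool with 5064 CPM of hepatocyte markers.

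Of 19 measured genes of heme synthesis and transport, 0 passed with *thia* in F1, F3 or the difference by edgeR, with 2 at an unadjusted p under 0.05 in each. DESeq2 called 1, *Slc11a2*, in F3 and in the difference, against 14.9% of all genes in F3. In F3 *Slc11a2*, an iron transporter, was at 26.7 ± 1.7 CPM in control and 37.6 ± 6.9 CPM in *thia* (SD over 3 pools), and the log2 fold change was 0.49 (SE 0.14) with an adjusted p of 0.132 in edgeR and of 0.022 in DESeq2. *Ireb2*, an iron sensor, had a log2 fold change of -0.17 (adjusted p = 0.191) and *Abcb10*, a mitochondrial transporter of erythroid cells, one of 0.38 (adjusted p = 0.372), which was 0.06 without F3 *thia* replicate 2.

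In F1 the genes with the smallest p included *Cpox*, at a log2 fold change of -0.34 with an adjusted p of 0.556, and the transferrin receptor *Tfrc*, at -0.46 with one of 0.586. In F3 control against F1 control 10 of the 19 rose and 1 fell, against 19.9% of all genes called higher and 42.3% called either way. The one that fell was *Alas1*, the housekeeping counterpart of *Alas2*, with a log2 fold change of -0.45 (SE 0.16, adjusted p = 0.0489 in edgeR), so the 2 enzymes for the same step differed in direction. The call of *Alas1* was lost without F1 control replicate 1, F1 control replicate 2 or F3 control replicate 1. *Alas2*, *Fech* and *Slc25a37* stand in the erythroid list too. Without F3 *thia* replicate 2, 4 of the 19 were called lower with *thia* in F3, these 3 and *Glrx5* (log2 fold change -0.53, adjusted p = 0.0989 in edgeR). There 2.59% of all genes were called lower.

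Of 24 regulators of globin genes, 0 passed with *thia* in F1, F3 or the difference by edgeR, with 1, 2 and 4 at an unadjusted p under 0.05. DESeq2 called 3 in F3, *Klf2*, *Zfpm1* and *Zbtb7a*, against 14.9% of all genes. *Bcl11a*, known as a repressor of embryonic and fetal globin genes, was at 6.57 ± 2.43 CPM in F3 control and 6.49 ± 3.54 CPM in F3 *thia* (SD, n = 3), a log2 fold change of -0.03 (SE 0.41, adjusted p = 0.974 in edgeR). F3 *thia* replicate 2 was at 10.6 CPM and the other 2 *thia* pools were at 4.38 and 4.51 CPM, and without it the log2 fold change of *Bcl11a* was -0.57 (SE 0.30, adjusted p = 0.307). *Klf2*, which acts on embryonic globin genes in primitive erythroid cells and is also an endothelial factor, was at 12.2, 11.8 and 12.7 CPM in F3 control and at 14.9, 23.1 and 19.3 CPM in F3 *thia*.

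Its groups did not overlap, and *Klf2* had a log2 fold change of 0.65 (SE 0.17) with an adjusted p of 0.117 in edgeR, above the threshold, and of 0.00768 in DESeq2. The 7 endothelial markers moved the same way, at 174 to 199 CPM summed in F3 control and 253 to 302 CPM in F3 *thia*, and their part in this value was not tested. *Zbtb7a*, a repressor of fetal globin genes, was at 23.8 ± 5.7 CPM and 36.6 ± 9.1 CPM (SD, n = 3), with an adjusted p of 0.185 in edgeR and of 0.0464 in DESeq2. Its log2 fold change was 0.62, and 0.41 without F3 *thia* replicate 2. *Hdac2* had a log2 fold change of -0.23 (adjusted p = 0.238).

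In F1 *Gata2*, *Myb* and *Klf1* had log2 fold changes of 0.40, -0.41 and -0.68, with adjusted p-values of 0.554, 0.583 and 0.642 in edgeR. In F3 control against F1 control 8 of the 24 regulators rose and 5 fell in edgeR, with a median log2 fold change of 0.05. Among all 19626 genes tested, 3912 were called higher (19.9%) and 4388 lower. Without F3 control replicate 3, 1 regulator was called higher, against 14.6% of all genes, and 4 lower, and the median was -0.07. There 30.9% of all genes were called either way. Without F1 control replicate 2, 3 were called higher and 5 lower, and without F1 control replicate 3, 4 and 5. These 2 fits called 6540 and 7058 genes of the whole table, and nothing is read from the regulators' counts. *Bcl11a* was not called there (0.27, SE 0.33, adjusted p = 0.565).

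Genes that clear hemoglobin and heme were the last list. Of 12 genes 0 were called with *thia* in F1, F3 or the difference by edgeR, with 1, 2 and 1 at an unadjusted p under 0.05. *Hmox2*, the constitutive heme oxygenase, was at 91.0, 87.4 and 83.5 CPM in F3 control and at 75.9, 59.6 and 63.9 CPM in F3 *thia*. Its groups did not overlap, with a log2 fold change of -0.39 (SE 0.10) and an adjusted p of 0.113 in edgeR and of 0.0284 in DESeq2. *Lrp1*, a receptor that takes up heme-bound hemopexin among many ligands, was at 198 ± 43 CPM and 329 ± 98 CPM (SD, n = 3), with an adjusted p of 0.157 in edgeR and of 0.0171 in DESeq2.

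Without F3 *thia* replicate 2, 1 of the 12 was called, the heme transporter *Slc48a1* (log2 fold change -0.53, SE 0.09, adjusted p = 0.0682 in edgeR). There 6.82% of all genes were called and 2.59% were called lower. *Blvra*, a biliverdin reductase, had a log2 fold change of -0.19 in F3 (adjusted p = 0.331), and in F1 *Hp* (haptoglobin), *Ftl1* (ferritin light chain) and *Hmox1* (inducible heme oxygenase) had values of 0.55, 0.24 and -0.19, with adjusted p-values of 0.553, 0.61 and 0.62 in edgeR. In F3 control against F1 control 8 of 12 rose and 1 fell, against 19.9% of all genes called higher and 42.3% called either way. *Cd163*, the macrophage receptor for hemoglobin bound to haptoglobin, was at 0.189 ± 0.029 CPM in F1 control and 1.18 ± 0.14 CPM in F3 control (log2 fold change 2.65, SE 0.33, adjusted p = 0.000221 in edgeR). The 6 macrophage markers moved the same way, at 53.7 to 63.2 CPM summed in F1 control and 108 to 174 CPM in F3 control, and their part in this value was not tested. *Hmox1* was lower in F3 control (-0.50, SE 0.11, adjusted p = 0.00411).

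Among 15385 genes with a mean of at least 1 CPM that are not members, the 5 most like the adult sum over the 12 pools included *Alas2* (Pearson r 0.996), *Bpgm* (0.993), *Slc48a1* (0.989) and *Isg20* (0.987). *Slc48a1*, a heme transporter, had a mean of 42.7 CPM in F1 control and 148 CPM in F3 control. Because the 2 generations form 2 separate sets of pools, the r within each is given too: the 5 genes had 0.94 to 0.98 in the 6 F1 pools and 0.90 to 0.99 in the 6 F3 pools.

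The genes most like the embryonic sum were *Tsr3* (0.93), *Nelfe* (0.91), *Trmt2a* (0.91), *Aamp* (0.89) and *Cdk2ap1* (0.89), none of which is a globin partner or marks blood. Their levels varied little, *Tsr3* from 22.0 CPM in F3 *thia* to 25.8 CPM in F3 control. Within a generation these genes had an r of 0.84 to 0.97 in F1 and 0.90 to 0.98 in F3. No gene of the erythroid list was among them, and the erythroid gene with the highest r with the embryonic sum in F3 reached 0.63. The genes most like the embryonic to adult ratio were *Otub1* (0.95), *Gtf3c5* (0.95), *Ccno* (0.95), *Smarcb1* (0.94) and *Prmt5* (0.94). Within a generation they had an r of 0.68 (*Ccno*) to 0.98 in F1 and 0.76 (*Prmt5*) to 0.90 in F3. *Ccno* was low, with group means of 1.09 to 1.56 CPM. Apart from those within a generation, these r are over 12 pools in 4 groups, and all are a description only.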

How the data were processed

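RNA was sequenced from 12 pools of E15.5 testes in 4 groups of 3. The authors made strand-specific libraries from 1 µg of total RNA (NEBNext Ultra II Directional), read them in pairs of 100 bases, mapped them to mm10 with HISAT2 2.1.0 and used featureCounts with the mm10 refGene gene models to count each gene. The submitters' processing notes also name bcl2fastq 2.20.0.422 and DESeq2 2.11.40.7. The deposited values are raw counts per gene symbol, with 0 rows that name no gene. The treatment of reads that match 2 genes is not given in the sources used here. The labels do not say how the embryos of a group were split over litters, so p-values measure the spread between pools.

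The fits were made with edgeR 4.0.16 under R 4.3.3 (TMM scaling, filterByExpr at a minimum count of 10, quasi-likelihood test, Benjamini-Hochberg adjustment over all genes tested). An SE is the log2 fold change, without its sign, divided by the square root of the F statistic of this test. *Thia* was compared with control within F1 at an adjusted p of 0.15 and within F3 at 0.1, as the study did, and the difference of these effects in all 12 pools at 0.1. F3 control against F1 control, at 0.1, was added after the data were seen. It was taken from the fit of all 12 pools, so its spread was estimated from the *thia* pools too. Alternatives were DESeq2 1.42.0, its size factors in edgeR, no filter on low counts, the 7 globins left out, all 12 pools in one fit, a replicate block and leaving out each pool. CPM used TMM factors of the 12 pools, and correlations used log2 CPM with a prior count of 2. Values per kilobase used the RefSeq transcript length. Identity was computed with Biopython 1.88 in Python 3.11.15. The pipeline was tested on simulated data. No 2 replicates were identical, and each pair differed by more than sampling noise.

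The members and all gene and marker lists were chosen with earlier results of these data known. Named are the 7 members, other globin genes with a median of at least 1 CPM, list genes that passed in F1, F3 or the difference, otherwise the 3 with the smallest p in each generation, a set of defining genes (*Alas2*, *Slc4a1*, *Klf1*, *Gata1*, *Bcl11a*), and the 5 genes most like each globin profile. Any further gene named was picked with its values known. Some genes that the rule names are not reported here.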

Additional observations from a re-analysis of the deposited data

How the results depend on the processing

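The number of genes called depended on the processing. In F1, 2 genes were called, against 193 with DESeq2, 243 without the filter on low counts, 0 with all 12 pools in one fit and 0 to 20 when a pool was left out. In F3, 0 genes were called, against 2262 with DESeq2, 569 without the filter, 1936 with all 12 pools in one fit and 0 to 1294 when a pool was left out, the highest without F3 *thia* replicate 2. For the difference between F3 and F1, 1 gene was called, against 638 with DESeq2 and 0 to 4 when a pool was left out. F3 control against F1 control gave 7649 to 8295 calls under the other settings and 6243 to 8704 when a pool was left out. The cause was not tested.

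The log2 fold changes of the 3 embryonic globins in F3 kept their sign under all 10 alternatives each, with ranges of -2.91 to -2.27 for *Hbb-y*, -1.56 to -1.09 for *Hbb-bh1* and -1.88 to -1.45 for *Hba-x*. Leaving out a pool could hardly change the sign, because the pools of F3 control and F3 *thia* did not overlap in these genes. The ranges are a description of size only. The difference in the log2 ratio of embryonic to adult globins in F3 ran from -2.38 to -1.73 when a pool was left out and was -1.38 for the alpha-like genes alone. In F1 it ran from -0.27 to 0.55 when a pool was left out. The median log2 fold change of the erythroid genes in F3 ran from -0.65 to 0.91 when a pool was left out.

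With the replicate number as a block, 3 genes were called in F1, 0 in F3 and 0 for the difference, and the median of the erythroid genes in F3 was 0.14. The labels do not say that the numbers pair the pools, and the deviations of same-numbered pools had correlations of -0.11, -0.08 and 0.01 in F1 and 0.24, -0.40 and -0.23 in F3, so the numbers were not taken as pairs. The 32 to 307 counts per pool of *Hbb-bh1* and the 3 pools a group limit the precision.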
